A study of Saccharomyces cerevisiae with 8 samples.

Results

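The genes of respiration examined here, called members, were 35 nuclear genes that encode subunits of complex III, complex IV and ATP synthase, and the NADH dehydrogenases, of Saccharomyces cerevisiae. They were taken by gene symbol from the 6600 protein-coding genes of the count tables. All 35 were found, 9 of complex III, 7 of complex IV, 16 of ATP synthase and 3 NADH dehydrogenases. RNA-seq was performed on 4 evolved strains with 2 replicate chemostat cultures each, 8 libraries in all. All strains descend from the FY4/S288C background with a fluorescent reporter and drug marker integrated beside GAP1, the general amino acid permease gene on chromosome XI, and all were grown with glutamine as the limiting nutrient and glucose in excess. Each strain is a clone that carries its own copy number variant (CNV) of GAP1. DGY1743 (ODIRA_B) and DGY1735 (ODIRA_A) carry triplications attributed to replication-origin dependent amplification, with different limits. DGY1741 (ComQuad) carries a complex variant with a further copy of GAP1. DGY1726 (Trans) carries a tandem duplication within a translocation, and another CNV on chromosome V. By the study's account DGY1743 and DGY1741 were isolated after more generations of selection than DGY1735 and DGY1726, so that strain and length of selection cannot be told apart. Cycloheximide was added shortly before harvest in every culture. The ancestor was not analysed here, so that no strain served as a control, and each ratio has the strain with the higher DGY number on top.

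In the mitochondrial respiratory chain, electrons from NADH pass through ubiquinone, complex III (the cytochrome bc1 complex), cytochrome c and complex IV (cytochrome c oxidase) to oxygen. ATP synthase uses the resulting proton gradient to make ATP. Budding yeast has no proton-pumping complex I, and single-polypeptide NADH dehydrogenases on the inner (NDI1) and outer (NDE1, NDE2) face of the inner membrane take its place. Complexes III, IV and ATP synthase are assembled from subunits of both genomes, and many of the nuclear genes are known targets of the heme-responsive Hap2/3/4/5 activator, which binds a CCAAT box.

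None of the 35 genes lies in an amplified segment named by the study, and no stretch of 50 bases in them occurs elsewhere in the genome. They lie on 12 chromosomes. COX4 and COX13 are close neighbours on chromosome VII, 4507 bases apart. The dubious reading frame YLR294C overlaps ATP14 on the same strand, so that reads in the overlap could be counted for both. The upstream region of each gene (500 bases before the start codon) was searched on both strands for CCAAT and for ACCAATNA, an extended form of the Hap2/3/4/5 site that was added after the first search, and contains the shorter letters. The shorter CCAAT was found for 32 of the 35 genes (91.4%) and for 62.9% of the 5507 upstream regions of tested genes. ACCAATNA was found for 17 of the 35 genes (48.6%) and for 8.88% of those regions. Windows of 30 bases around the match are shown for members that differed among the strains, in the 5′ to 3′ direction of the gene, with the match in capitals. They were read from the RefSeq genome of build R64. QCR7, RIP1, ATP17, ATP15 and NDI1 carry the letters on their own strand, and TIM11 and ATP19 carry them on the other strand.
QCR7: atcttgttttgACCAATCAggagcgacgcg
RIP1: ctccataacggACCAATCAgcgttttgcgc
ATP17: ttacggagagaACCAATCAtatcgaaggat
ATP15: cttttatacgaACCAATGAaatttgatcct
NDI1: tattcattcggACCAATCAtatgaaggcat
TIM11: aatctccacgcTAATTGGTccgcggagcca
ATP19: gatctcgatggTGATTGGTcagagtccgct
The QCR7 window is chrIV:1496712-1496741 (minus strand), the RIP1 window is chrV:107001-107030 (plus strand) and the ATP17 window is chrIV:1228370-1228399 (plus strand). The ATP15 window is chrXVI:29934-29963 (plus strand) and the NDI1 window is chrXIII:30017-30046 (minus strand). The TIM11 window is chrIV:1112420-1112449 (minus strand) and the ATP19 window is chrXV:185291-185320 (plus strand). The letters end 175 bases before the start codon of QCR7, 241 before that of RIP1, 223 before that of ATP17, 127 before that of ATP15, 221 before that of NDI1, 138 before that of TIM11 and 129 before that of ATP19. Of the 18 matches in members, 15 (83.3%) lay between 101 and 250 bases before the start codon, a range chosen after the positions were seen, as did 31.3% of the 518 matches upstream of all tested genes. The members QCR8, COX7, COX9, STF1 and NDE2, which differed among the strains, had no ACCAATNA in this window. Of the 17 genes with ACCAATNA, 7 differed among the strains, as did 10 of the 18 genes without it.

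**Figure D1:**
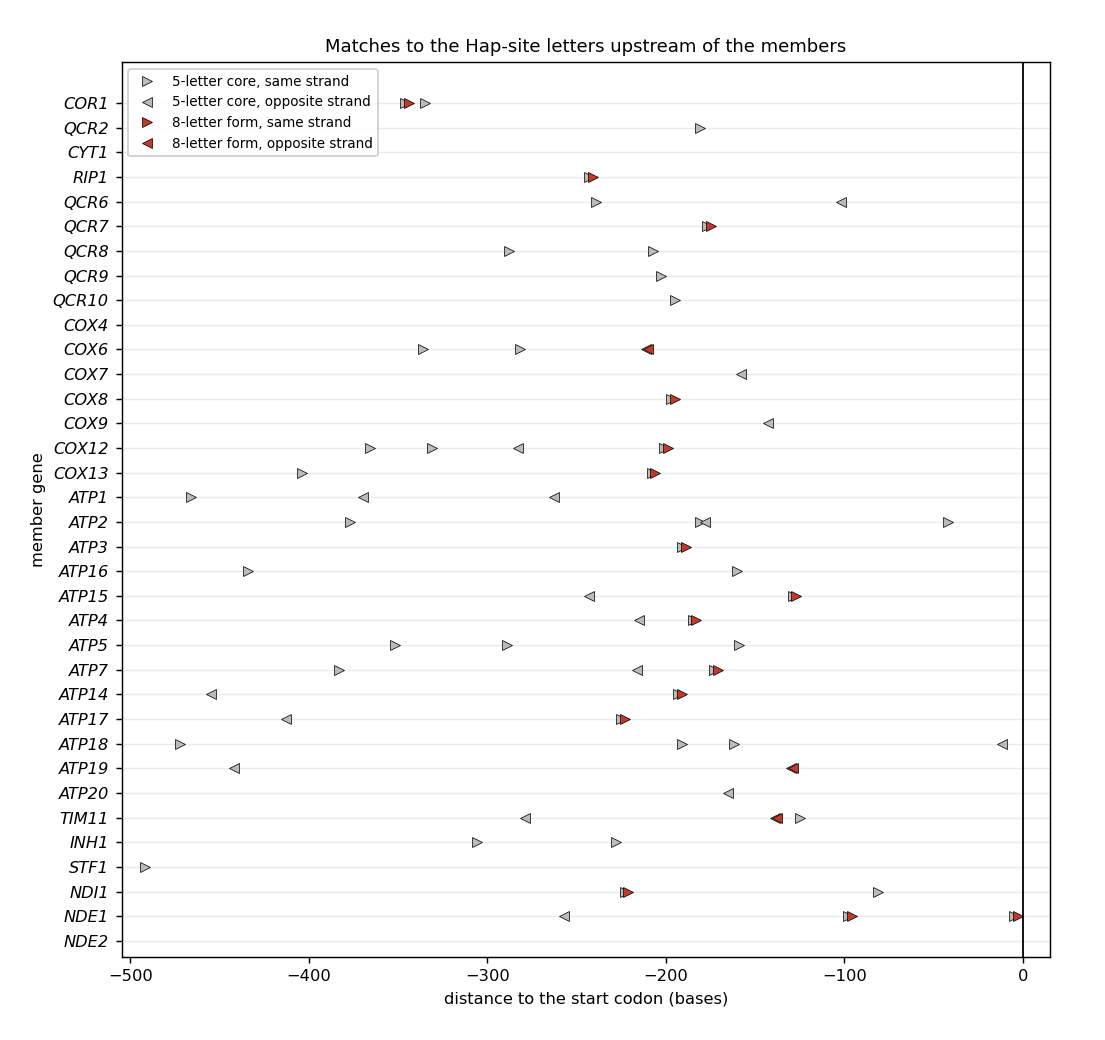
Positions of the CCAAT letters (grey) and of ACCAATNA (red) in the 500 bases before the start codon (x axis, bases) of each of the 35 genes (y axis). Triangles point right for the strand of the gene and left for the other strand, and 15 of the 18 red matches lie between 101 and 250 bases from the start codon.

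RNA abundance was measured as read counts per gene and is given as CPM, read counts scaled to 1 fixed total for every library, on library sizes scaled by TMM, a factor that equalizes the bulk of genes between libraries. Such values are relative within a library, and RNA per cell was not measured. Differences are log2 ratios with their standard error (SE). Protein-coding counts ranged from 9125509 to 13205947 per library. The lowest count of any member was 114 (ATP15), and all 35 genes passed the filter of a mean of 100 counts, as 5527 of 6600 genes did. The members took 0.401% and 0.393% of the nuclear protein-coding counts in DGY1743, 0.310% and 0.338% in DGY1741, 0.342% and 0.388% in DGY1735 and 0.333% and 0.367% in DGY1726. Transcripts of the mitochondrial genome took 13.2% and 19.2% of the protein-coding counts in DGY1743, against 0.0534% to 0.0957% in the 6 other libraries. With these genes left out and TMM scaling again, all 54 called member ratios stayed past the threshold and in the same direction. TMM follows the bulk of genes in both fits, so that little change could arise. What part the mitochondrial transcripts had in the values of DGY1743 was not tested.

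Per kb of gene, the members were well expressed, with a median of 155 CPM per kb, against 69.4 for all tested genes. Complex IV had the highest median level (267 per kb), followed by complex III (167), ATP synthase (154) and the NADH dehydrogenases (79.9). The highest member was COX9 (699 per kb), a small subunit of cytochrome c oxidase, followed by the complex III subunits QCR8 (452) and QCR7 (403) and by COX12 (388) and ATP17 (379). Reads that overlap a gene only in part were counted, which raises levels per kb most for short genes. The order of genes with close levels is not firm for that reason. Averaged over the strains, the lowest were CYT1, cytochrome c1 (54.5), and the external dehydrogenase NDE2 (54.2). The NDE2 level was 15.1 per kb in DGY1741 and 86.6 per kb in DGY1735, where CYT1 had 57.0, so that NDE2 was not the lower of these in every strain.

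The first question was whether the members differed among the 4 strains. Of the 35 genes, 17 (48.6%) did (edgeR, adjusted p under 0.05), and 47.3% of all tested genes did, so that the share of members was near the background. They were QCR2, CYT1, RIP1, QCR7 and QCR8 of complex III, COX7 and COX9 of complex IV, ATP1, ATP15, ATP5, ATP17, ATP19, ATP20, TIM11 and STF1 of ATP synthase, and NDI1 and NDE2. With 1 library left out, the lowest number passing was smaller both for the members and for all tested genes. The members were spread unevenly over the strains. The strain with the highest mean was DGY1743 for 20 of the 35 genes (57.1%, against 23.0% of all tested genes), and the strain with the lowest mean was DGY1741 for 20 genes (57.1%, against 30.4%). Both DGY1743 libraries lay above the 6 others for 12 of the 35 genes (34.3%), as for 10.5% of all tested genes: QCR7, QCR8, COX4, COX6, COX7, COX9, COX12, ATP3, ATP4, ATP20, TIM11 and NDE1. Both DGY1741 libraries lay below the 6 others for 10 genes (28.6%), as for 16.4% of all tested genes: COR1, QCR2, RIP1, ATP16, ATP15, ATP18, ATP19, TIM11, STF1 and NDE2. DGY1743 was below the 6 others for none of the 35 (8.87% of all tested genes) and DGY1741 above them for 1, ATP5 (17.2%). DGY1735 was above for 1, NDE2 (5.72%), and below for none (8.49%), and DGY1726 was above for 1, ATP19 (8.25%), and below for 5 (9.06%): QCR7, COX9, COX12, ATP5 and ATP17. The 4 libraries of DGY1743 and DGY1741 together lay above the 4 of DGY1735 and DGY1726 for 3 members (16.2% of all tested genes) and below them for 7 (14.2%). These shares were not tested, since genes are not replicates.

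**Figure D2:**
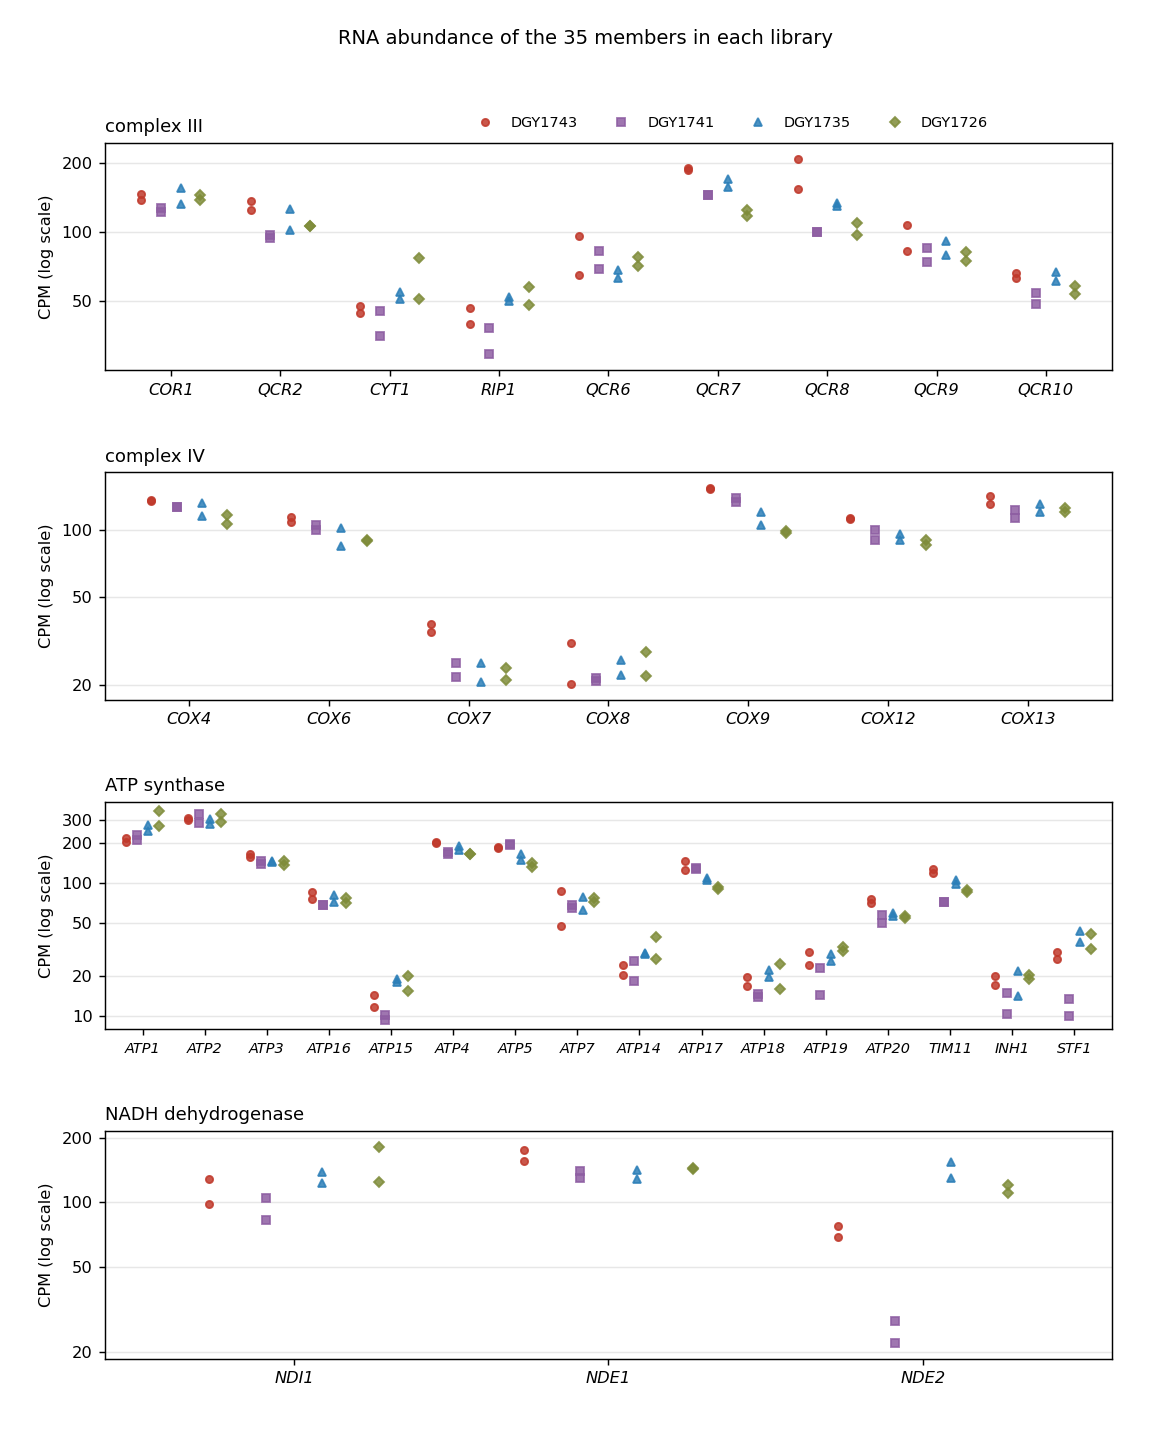
RNA abundance (CPM, log scale) of each of the 35 genes in the 2 libraries of each strain, in a panel for each complex. The widest gap between strains is that of NDE2, with the DGY1741 libraries at 27.7 and 21.9 CPM and the DGY1735 libraries at 129.8 and 154 CPM.

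The order of the strains by summed RNA abundance of the members was not the same in each complex. Complex III summed to 971 ± 13.3 CPM in DGY1743, 746 ± 37.3 in DGY1741, 873 ± 64.9 in DGY1735 and 797 ± 37.6 in DGY1726 (SD, n = 2 each). Complex IV summed to 715 ± 23.8 CPM in DGY1743, 627 ± 16.5 in DGY1741, 599 ± 52.6 in DGY1735 and 560 ± 19.0 in DGY1726, so that DGY1741 came next to DGY1743 here, and DGY1741 and DGY1735 differed by less than the spread of the DGY1735 cultures. ATP synthase summed to 1674 ± 22.1 CPM in DGY1743, 1513 ± 67.1 in DGY1741, 1607 ± 93.0 in DGY1735 and 1604 ± 134 in DGY1726, and its libraries overlapped between most strains. The NADH dehydrogenases summed to 353 ± 1.43 CPM in DGY1743, 254 ± 19.0 in DGY1741, 409 ± 18.5 in DGY1735 and 414 ± 47.2 in DGY1726. Sums weigh the most abundant subunits most, and carry no test.

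**Figure D3:**
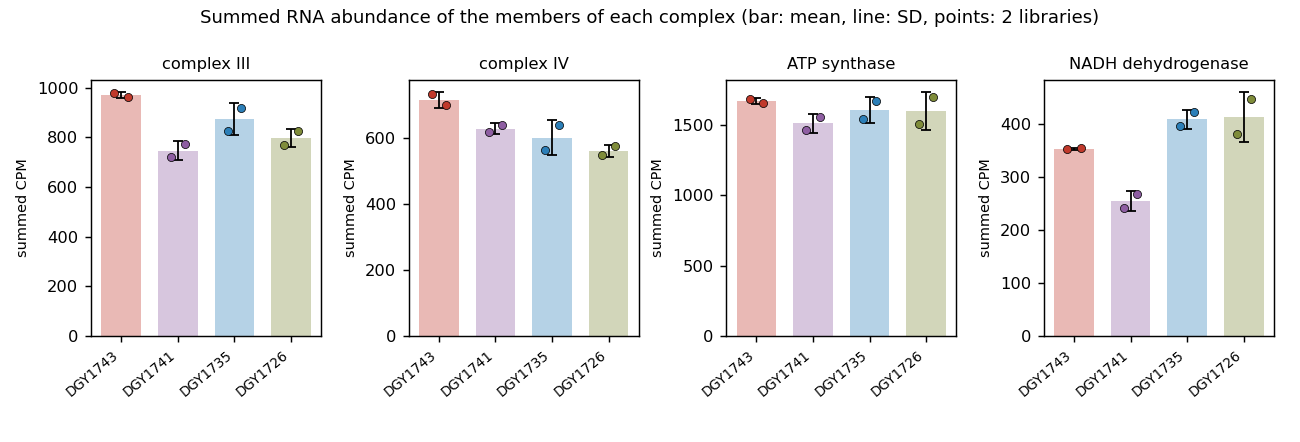
Summed RNA abundance (CPM) of the members of each complex, with bars for the mean of 2 libraries, lines for the SD and points for the libraries. DGY1743 is highest for complex III (971 ± 13.3 CPM) and complex IV (715 ± 23.8 CPM), and DGY1741 is lowest for the NADH dehydrogenases (254 ± 19.0 CPM).

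Strains were then compared in pairs, which share libraries and are not independent of each other. In DGY1743 over DGY1741, 9 members were higher and none lower, where 24.6% of all tested genes differed, 14.3% higher and 10.3% lower. At an unadjusted p under 0.05, 15 of the 35 members and 1880 of the 5527 tested genes differed. DESeq2 called 8 of the members and 1188 of the tested genes. The median log2 ratio of the 35 genes was 0.28, and that of all tested genes was -0.0021. In DGY1743 over DGY1735, 2 were higher and 1 lower (background 16.1%, of which 9.72% higher and 6.4% lower). In DGY1743 over DGY1726, 7 were higher and 3 lower (background 27.2%, of which 13.4% higher and 13.8% lower). In DGY1741 over DGY1735, 1 was higher and 9 lower (background 38.5%, of which 20.3% higher and 18.2% lower), and in DGY1741 over DGY1726, 3 were higher and 10 lower (background 43.2%, of which 21.2% higher and 22% lower). The median log2 ratio of the 35 genes was -0.17 in DGY1741 over DGY1735 and -0.11 in DGY1741 over DGY1726, and those of all tested genes were 0.0082 and -0.0094 in the same comparisons. In DGY1735 over DGY1726 no member passed the threshold with edgeR (background 1.76%, of which 0.651% higher and 1.1% lower) or with DESeq2 (191 of the 5527 tested genes). At an unadjusted p under 0.05, 3 members and 828 tested genes differed in this pair. The log2 ratios of the members ran from -0.25 (CYT1) to 0.45 (QCR7) with SEs of 0.10 to 0.22. Against the mean of the other 3 strains, 9 members were higher in DGY1743 and none lower (background 21.4%, of which 13.3% higher and 8.05% lower), with a median log2 ratio of 0.17 over the 35 genes and 0.0018 over all tested genes. They were QCR2, QCR7, QCR8, COX7, COX9, COX12, ATP17, ATP20 and TIM11. At an unadjusted p under 0.05, 14 of the 35 members and 1959 of the 5527 tested genes differed. DESeq2 called 10 of the members and 1289 of the tested genes. With 1 library left out, the lowest number called by edgeR was smaller both for the members and for all tested genes.

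**Figure D4:**
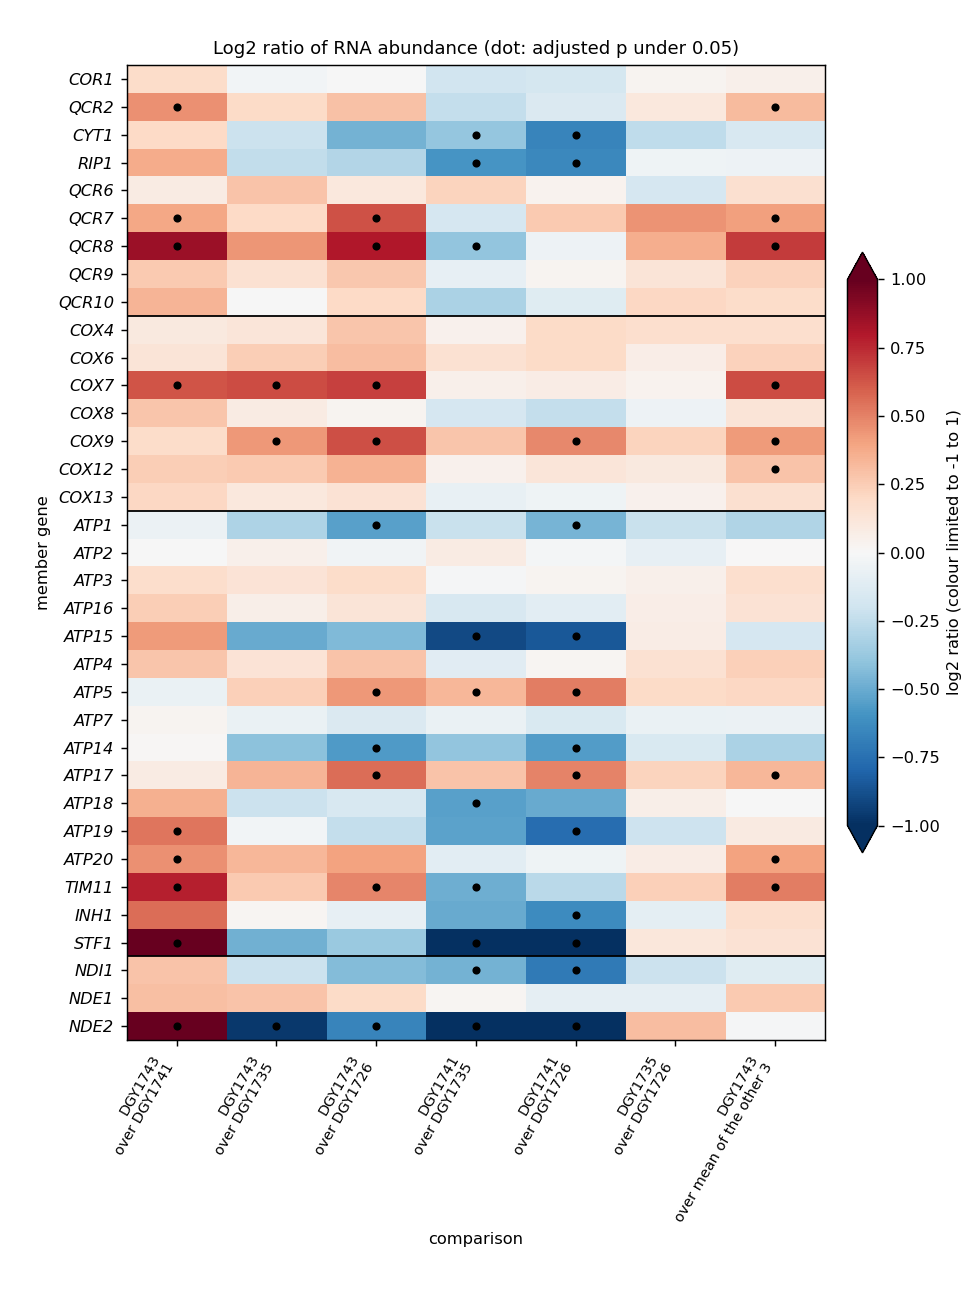
Log2 ratios of the 35 genes (rows, grouped by complex) in the 6 pairs of strains and in DGY1743 over the mean of the other 3 (columns), with the first-named strain on top. Dots mark an adjusted p under 0.05, and the column of DGY1735 over DGY1726 has none.

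In complex III, which passes electrons from ubiquinol to cytochrome c, the largest ratios were those of QCR8. QCR8 (YJL166W, chromosome X, 106434 to 106718), which contacts the mitochondrially encoded cytochrome b, had 154 and 207 CPM in DGY1743, 99.5 and 100.0 in DGY1741, 130.1 and 134 in DGY1735 and 96.8 and 109.9 in DGY1726. Both DGY1743 libraries were above all others, although they differed from each other, and both DGY1735 libraries were above those of DGY1741 and DGY1726. QCR8 was higher in DGY1743 than in DGY1741 (log2 ratio 0.86 with SE 0.14 and adjusted p = 6.86e-09), and than in DGY1726 (log2 ratio 0.80 with SE 0.14 and adjusted p = 0.000275). QCR8 was lower in DGY1741 than in DGY1735 (log2 ratio -0.39 with SE 0.11 and adjusted p = 0.0114), which did not pass the threshold without DGY1741 replicate 1 (-0.39, adjusted p = 0.0835).

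QCR7 (YDR529C, chromosome IV, 1496165 to 1496548), another small subunit next to cytochrome b, had 187 and 191 CPM in DGY1743, 145 and 145 in DGY1741, 158 and 170.5 in DGY1735 and 125 and 117 in DGY1726. The 4 strains did not overlap, in the order DGY1743, DGY1735, DGY1741 and DGY1726. QCR7 was higher in DGY1743 than in DGY1726 (log2 ratio 0.64 with SE 0.12 and adjusted p = 0.000579) and than in DGY1741 (log2 ratio 0.39 with SE 0.13 and adjusted p = 0.0204). The call in DGY1743 over DGY1741 was lost without DGY1741 replicate 1 (adjusted p = 0.134) or replicate 2 (adjusted p = 0.132). QCR2 (YPR191W, chromosome XVI, 919381 to 920487), a core protein of the matrix side, had 137 and 125 CPM in DGY1743, 97.02 and 94.4 in DGY1741, 102 and 125 in DGY1735 and 106 and 106 in DGY1726. It was higher in DGY1743 than in DGY1741 (log2 ratio 0.45 with SE 0.14 and adjusted p = 0.00711) and did not pass without either DGY1741 library (adjusted p = 0.116 without replicate 2 and 0.076 without replicate 1). Against the mean of the other 3 strains QCR2 was also higher in DGY1743 (log2 ratio 0.31 with SE 0.10 and adjusted p = 0.0365). This call was lost in 7 of 14 alternatives other than the threshold of 0.01, 6 of them fits with a library left out. Without DGY1743 replicate 1 the ratio was 0.25.

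The catalytic subunits showed another order. RIP1 (YEL024W, chromosome V, 107260 to 107907), the Rieske iron-sulfur protein, had 46.8 and 39.7 CPM in DGY1743, 29.3 and 37.97 in DGY1741, 50.2 and 51.9 in DGY1735 and 47.99 and 57.5 in DGY1726. The 4 libraries of DGY1743 and DGY1741 lay below the 4 of DGY1735 and DGY1726, with DGY1741 lowest. RIP1 was lower in DGY1741 than in DGY1735 (log2 ratio -0.59 with SE 0.14 and adjusted p = 0.00615) and than in DGY1726 (log2 ratio -0.64 with SE 0.16 and adjusted p = 0.00247). Without DGY1741 replicate 1 the adjusted p was 0.0794 for DGY1741 over DGY1735 and 0.0687 for DGY1741 over DGY1726. CYT1 (YOR065W, chromosome XV, 447439 to 448368), cytochrome c1, had 44.3 and 47.6 CPM in DGY1743, 35.2 and 45.2 in DGY1741, 51.1 and 54.9 in DGY1735 and 50.8 and 76.7 in DGY1726. CYT1 was lower in DGY1741 than in DGY1726 (log2 ratio -0.66 with SE 0.17 and adjusted p = 0.00427), but DGY1726 replicate 2 stood above every other library. Without that library the ratio was -0.33 and the call was lost, as also happened without DGY1741 replicate 1 (log2 ratio -0.49). CYT1 was also lower in DGY1741 than in DGY1735 (log2 ratio -0.39 with SE 0.14 and adjusted p = 0.0439), and without DGY1741 replicate 1 the ratio was -0.22, adjusted p = 0.26. The core protein COR1, the hinge protein QCR6 and the small subunits QCR9 and QCR10 did not pass the threshold in any comparison. COR1 ranged from 123 to 155 CPM over the 8 libraries, QCR6 from 63.1 to 95.5, QCR9 from 73.9 to 107 and QCR10 from 48.2 to 67.1. Of the 13 called ratios of complex III, 5 stayed called under every alternative other than a threshold of 0.01.

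In complex IV, which reduces oxygen, each of the 7 members had its highest mean in DGY1743. The nuclear subunit genes COX5A and COX5B are not among the members and are given with the isoform genes below. COX7 (YMR256C, chromosome XIII, 778945 to 779127) had 37.9 and 34.7 CPM in DGY1743, 21.9 and 25.3 in DGY1741, 20.7 and 25.1 in DGY1735 and 21.2 and 23.9 in DGY1726. The libraries of DGY1743 stood above the others, and those of the other 3 strains overlapped. Against the mean of the other 3, COX7 was higher in DGY1743 (log2 ratio 0.66 with SE 0.13 and adjusted p = 0.00377), and this call held under every alternative. In pairs it was higher in DGY1743 than in DGY1741 (log2 ratio 0.63 with SE 0.19 and adjusted p = 0.00789), than in DGY1735 (log2 ratio 0.65 with SE 0.16 and adjusted p = 0.0324) and than in DGY1726 (log2 ratio 0.68 with SE 0.18 and adjusted p = 0.00795). Each pair lost the call without 1 or more libraries: the adjusted p was 0.217 without DGY1741 replicate 1, 0.209 without DGY1735 replicate 1 and 0.102 without DGY1726 replicate 1.

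COX9 (YDL067C, chromosome IV, 334217 to 334396) had 154 and 155 CPM in DGY1743, 134 and 139 in DGY1741, 106 and 121 in DGY1735 and 99.4 and 97.00 in DGY1726. The strains did not overlap, in the order DGY1743, DGY1741, DGY1735 and DGY1726. COX9 was higher in DGY1743 than in DGY1726 (log2 ratio 0.65 with SE 0.13 and adjusted p = 0.000611), and it was higher in DGY1741 than in DGY1726 (log2 ratio 0.48 with SE 0.11 and adjusted p = 0.00178). It was also higher in DGY1743 than in DGY1735 (log2 ratio 0.43 with SE 0.11 and adjusted p = 0.0375), where the call was lost without DGY1735 replicate 1 (0.35, adjusted p = 0.244) and without either DGY1743 library. COX12 (YLR038C, chromosome XII, 224921 to 225172) had 114 and 113 CPM in DGY1743, 90.8 and 101 in DGY1741, 90.9 and 96.6 in DGY1735 and 86.2 and 90.4 in DGY1726, and was higher in DGY1743 than the mean of the 3 other strains (log2 ratio 0.29 with SE 0.09 and adjusted p = 0.0345), a call lost without either DGY1743 library and without 3 of the other libraries (adjusted p up to 0.126). The remaining members COX4, COX6, COX8 and COX13 passed the threshold in no comparison. COX4 ranged from 107 to 137 CPM, COX6 from 84.9 to 115, COX8 from 20.3 to 31.2 and COX13 from 114 to 143.

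ATP synthase joins a soluble F1 head, which makes ATP, to a membrane sector through a central and a peripheral stalk. Of its 5 F1 subunits, ATP1 and ATP15 differed between strains. ATP1 (YBL099W, chromosome II, 37053 to 38690), the alpha subunit, had 217 and 205 CPM in DGY1743, 210.1 and 232 in DGY1741, 246 and 275 in DGY1735 and 267 and 346 in DGY1726. The 4 libraries of DGY1743 and DGY1741 were below the 4 others. ATP1 was lower in DGY1743 than in DGY1726 (log2 ratio -0.54 with SE 0.14 and adjusted p = 0.00501) and lower in DGY1741 than in DGY1726 (log2 ratio -0.47 with SE 0.13 and adjusted p = 0.00685). Both calls were lost without DGY1726 replicate 2, where the ratios were -0.34 for DGY1743 and -0.27 for DGY1741. The call in DGY1741 over DGY1726 was also lost without DGY1741 replicate 1 (log2 ratio -0.40). ATP2, the catalytic beta subunit, ranged from 280 to 333 CPM and passed in no comparison. Per kb, ATP1 over ATP2 was 0.661 and 0.639 in DGY1743, 0.694 and 0.662 in DGY1741, 0.825 and 0.845 in DGY1735 and 0.864 and 0.975 in DGY1726. ATP15 (YPL271W, chromosome XVI, 30079 to 30267), the epsilon subunit, had 14.4 and 11.7 CPM in DGY1743, 9.38 and 10.2 in DGY1741, 17.9 and 18.99 in DGY1735 and 15.5 and 19.9 in DGY1726. ATP15 was lower in DGY1741 than in DGY1735 (log2 ratio -0.90 with SE 0.19 and adjusted p = 0.00246) and than in DGY1726 (log2 ratio -0.85 with SE 0.21 and adjusted p = 0.00267), where without DGY1726 replicate 2 the ratio was -0.66, adjusted p = 0.0652. The gamma subunit ATP3 (137 to 165 CPM) and the delta subunit ATP16 (68.5 to 85.7 CPM) passed in no comparison.

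Of the peripheral stalk, ATP5 (YDR298C, chromosome IV, 1058176 to 1058814), which joins it to F1, had 185 and 188 CPM in DGY1743, 194 and 198 in DGY1741, 149 and 164 in DGY1735 and 133 and 143 in DGY1726. The 4 libraries of DGY1743 and DGY1741 were above the 4 others, opposite to ATP1. ATP5 was higher in DGY1741 than in DGY1726 (log2 ratio 0.51 with SE 0.11 and adjusted p = 0.00121) and in DGY1743 than in DGY1726 (log2 ratio 0.43 with SE 0.12 and adjusted p = 0.0119), where DGY1743 over DGY1726 had an adjusted p of 0.124 without DGY1726 replicate 1. In DGY1741 over DGY1735 the call (log2 ratio 0.33 with SE 0.11 and adjusted p = 0.0338) was lost without any 1 of the 4 libraries (adjusted p up to 0.217) and with DESeq2 (adjusted p = 0.0552). ATP14 (YLR295C, chromosome XII, 721999 to 722373) had 20.3 and 24.4 CPM in DGY1743, 18.4 and 25.99 in DGY1741, 29.03 and 29.9 in DGY1735 and 27.00 and 38.96 in DGY1726. ATP14 was lower in DGY1743 than in DGY1726 (log2 ratio -0.57 with SE 0.20 and adjusted p = 0.0441) and in DGY1741 than in DGY1726 (log2 ratio -0.56 with SE 0.20 and adjusted p = 0.0263), and without DGY1726 replicate 2 these ratios were -0.28, adjusted p = 0.573 for DGY1743 and -0.28, adjusted p = 0.388 for DGY1741. ATP4 ranged from 165 to 205 CPM and passed in no comparison, and neither did ATP7, whose DGY1743 libraries had 87.1 and 47.9 CPM while the 6 others ran from 62.4 to 78.4.

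Among the membrane subunits, both DGY1743 libraries lay above the 6 others for TIM11 and ATP20, which hold ATP synthase dimers together. For ATP19, which is associated only with the dimer, both DGY1726 libraries lay above the 6 others. TIM11 (YDR322C-A, chromosome IV, 1112003 to 1112293) had 118 and 128 CPM in DGY1743, 72.3 and 72.02 in DGY1741, 98.6 and 106 in DGY1735 and 86.1 and 88.4 in DGY1726. The strains did not overlap, in the order DGY1743, DGY1735, DGY1726 and DGY1741. TIM11 was higher in DGY1743 than in DGY1741 (log2 ratio 0.78 with SE 0.14 and adjusted p = 9.84e-07) and than in DGY1726 (log2 ratio 0.49 with SE 0.13 and adjusted p = 0.00865), where the adjusted p was 0.0788 without DGY1726 replicate 1 and 0.0514 without DGY1726 replicate 2. TIM11 was lower in DGY1741 than in DGY1735 (log2 ratio -0.49 with SE 0.11 and adjusted p = 0.00306). ATP20 (YPR020W, chromosome XVI, 599870 to 600217) had 70.4 and 76.4 CPM in DGY1743, 50.03 and 57.1 in DGY1741, 59.4 and 56.8 in DGY1735 and 54.4 and 56.3 in DGY1726, and was higher in DGY1743 than the mean of the 3 other strains (log2 ratio 0.40 with SE 0.10 and adjusted p = 0.0129), with an adjusted p of 0.107 without DGY1743 replicate 2. It was also higher in DGY1743 than in DGY1741 (log2 ratio 0.46 with SE 0.15 and adjusted p = 0.0153), and without DGY1741 replicate 1 the ratio was 0.37, adjusted p = 0.326.

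ATP17 (YDR377W, chromosome IV, 1228611 to 1228916), another membrane subunit, had 125 and 147 CPM in DGY1743, 129 and 129.8 in DGY1741, 105 and 109 in DGY1735 and 90.4 and 93.4 in DGY1726, and the 4 libraries of DGY1743 and DGY1741 lay above the 4 others. It was higher in DGY1743 than in DGY1726 (log2 ratio 0.56 with SE 0.13 and adjusted p = 0.00352) and in DGY1741 than in DGY1726 (log2 ratio 0.49 with SE 0.11 and adjusted p = 0.00142). Against the mean of the other 3, ATP17 was higher in DGY1743 (log2 ratio 0.33 with SE 0.09 and adjusted p = 0.0203), and without DGY1743 replicate 2 the ratio was 0.21, adjusted p = 0.223. ATP19 (YOL077W-A, chromosome XV, 185438 to 185644) had 30.04 and 24.1 CPM in DGY1743, 14.4 and 23.02 in DGY1741, 25.8 and 29.05 in DGY1735 and 30.9 and 32.8 in DGY1726, with DGY1741 lowest. ATP19 was lower in DGY1741 than in DGY1726 (log2 ratio -0.76 with SE 0.19 and adjusted p = 0.00375) and higher in DGY1743 than in DGY1741 (log2 ratio 0.54 with SE 0.21 and adjusted p = 0.0492), and without DGY1741 replicate 1 the ratio was -0.47, adjusted p = 0.105 for DGY1741 over DGY1726 and 0.25, adjusted p = 0.688 for DGY1743 over DGY1741. The call in DGY1743 over DGY1741 was also lost without DGY1743 replicate 1 (adjusted p = 0.317), with DESeq2 (adjusted p = 0.131), with exon rows (adjusted p = 0.0502) and from 1 fit of all libraries (adjusted p = 0.0951). ATP18 had 16.7 and 19.5 CPM in DGY1743, 13.8 and 14.5 in DGY1741, 22.1 and 19.8 in DGY1735 and 15.9 and 24.5 in DGY1726. Its call of lower RNA in DGY1741 than in DGY1735 (log2 ratio -0.55 with SE 0.18 and adjusted p = 0.0288) was lost without DGY1735 replicate 1 (-0.48, adjusted p = 0.169) and without either DGY1741 library.

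Larger differences were found for an inhibitor of ATP synthase. STF1 (YDL130W-A, chromosome IV, 229171 to 229431), a small protein that helps to block ATP hydrolysis, had 26.9 and 30.5 CPM in DGY1743, 10.04 and 13.5 in DGY1741, 35.7 and 43.6 in DGY1735 and 32.1 and 41.7 in DGY1726. The DGY1741 libraries were far below the 6 others, and those of DGY1743 were below those of DGY1735 and DGY1726. STF1 was lower in DGY1741 than in DGY1735 (log2 ratio -1.74 with SE 0.19 and adjusted p = 7.26e-06) and than in DGY1726 (log2 ratio -1.64 with SE 0.19 and adjusted p = 1.15e-06), and it was higher in DGY1743 than in DGY1741 (log2 ratio 1.29 with SE 0.23 and adjusted p = 1.99e-07). These calls held under every alternative. INH1, the main inhibitor protein, had 19.9 and 17.1 CPM in DGY1743, 10.3 and 14.9 in DGY1741, 14.1 and 21.8 in DGY1735 and 18.8 and 20.2 in DGY1726. INH1 was lower in DGY1741 than in DGY1726 (log2 ratio -0.63 with SE 0.21 and adjusted p = 0.0191), and without DGY1741 replicate 1 the ratio was -0.39, adjusted p = 0.235. Per kb, STF1 over INH1 was 1.34 and 1.77 in DGY1743, 0.965 and 0.897 in DGY1741, 2.51 and 1.97 in DGY1735 and 1.69 and 2.04 in DGY1726.

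The largest difference among the members was that of NDE2, which oxidizes cytosolic NADH at the outer face of the inner membrane. NDE2 (YDL085W, chromosome IV, 303211 to 304848) had 77.7 and 68.8 CPM in DGY1743, 27.7 and 21.9 in DGY1741, 129.8 and 154 in DGY1735 and 110.4 and 120.3 in DGY1726. The 4 strains did not overlap, in the order DGY1735, DGY1726, DGY1743 and DGY1741, and the highest strain mean was 5.72 times the lowest. NDE2 was lower in DGY1741 than in DGY1735 (log2 ratio -2.51 with SE 0.14 and adjusted p = 2.54e-08) and than in DGY1726 (log2 ratio -2.22 with SE 0.14 and adjusted p = 1.24e-10). It was higher in DGY1743 than in DGY1741 (log2 ratio 1.57 with SE 0.17 and adjusted p = 1.51e-18), yet lower in DGY1743 than in DGY1735 (log2 ratio -0.96 with SE 0.13 and adjusted p = 0.00314) and than in DGY1726 (log2 ratio -0.66 with SE 0.14 and adjusted p = 0.00129). These 5 calls held in every fit without 1 library. NDE1, the paralog at the same face, had 176 and 156 CPM in DGY1743, 131 and 141 in DGY1741, 142 and 128 in DGY1735 and 145 and 144 in DGY1726, and passed the threshold in no comparison. Per kb, NDE2 over NDE1 was 0.454 and 0.452 in DGY1743, 0.218 and 0.160 in DGY1741, 0.939 and 1.23 in DGY1735 and 0.781 and 0.857 in DGY1726. NDI1 (YML120C, chromosome XIII, 28266 to 29807), the internal enzyme, had 98.7 and 129 CPM in DGY1743, 82.4 and 105 in DGY1741, 124 and 139 in DGY1735 and 125 and 183 in DGY1726. NDI1 was lower in DGY1741 than in DGY1726 (log2 ratio -0.71 with SE 0.15 and adjusted p = 0.000965), and without DGY1726 replicate 2, the highest library, the ratio was -0.41, adjusted p = 0.0255. It was also lower in DGY1741 than in DGY1735 (log2 ratio -0.48 with SE 0.13 and adjusted p = 0.0115), where without DGY1741 replicate 1 the ratio was -0.31, adjusted p = 0.166.

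**Figure D5:**
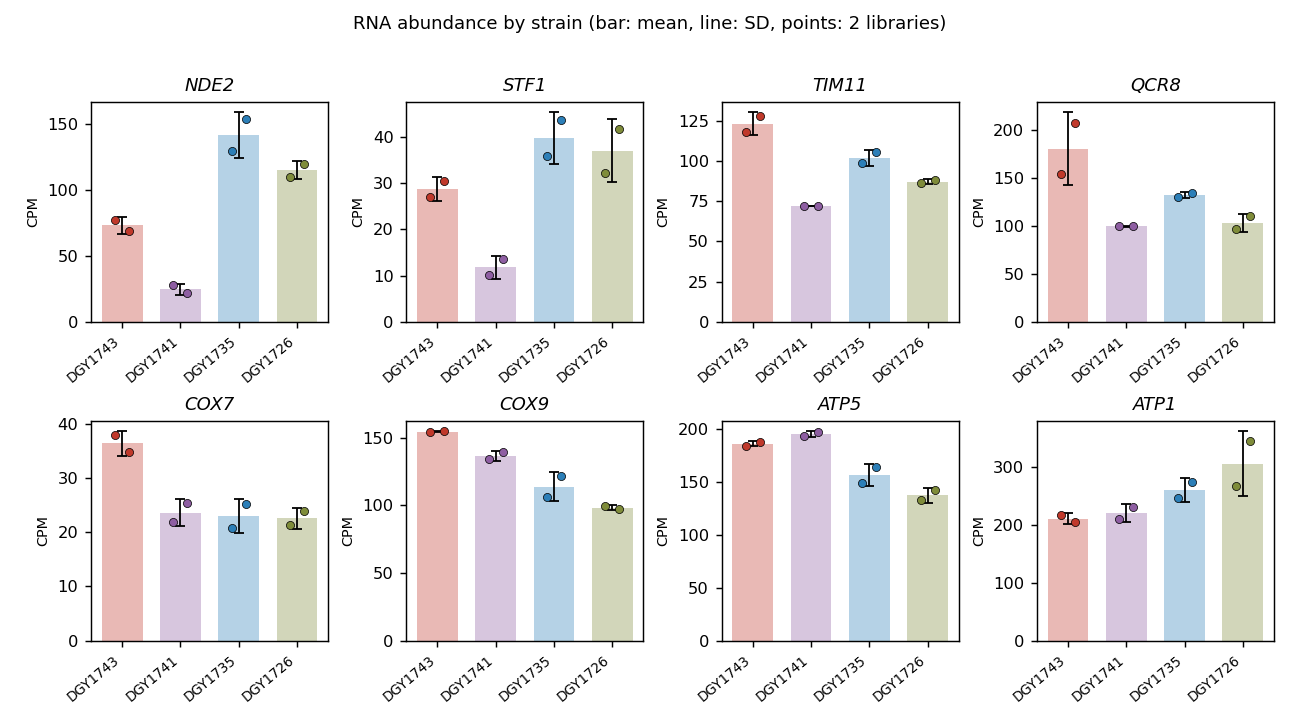
RNA abundance (CPM) of 8 members by strain, with bars for the mean of 2 libraries, lines for the SD and points for the libraries. NDE2 and STF1 are lowest in DGY1741, and COX7 is highest in DGY1743. The 4 libraries of DGY1743 and DGY1741 lie above the 4 others for ATP5 and below them for ATP1, which was called only against DGY1726.

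Other genes of the pathway were taken from 10 lists. All 7 mitochondrially encoded subunits of the 3 complexes were higher in DGY1743 than the mean of the 3 other strains (log2 ratios of 7.51 to 8.59). Among the 35 nuclear members the highest ratio in the same comparison was 0.70 (QCR8). Among the isoform genes, CYC7, the hypoxic form of cytochrome c, had 32.1 and 37.6 CPM in DGY1743, 9.13 and 10.4 in DGY1741, 38.8 and 41.4 in DGY1735 and 27.6 and 32.9 in DGY1726, and like NDE2 and STF1 it was lower in DGY1741 than in DGY1735 (log2 ratio -2.02 with SE 0.17 and adjusted p = 6.95e-07) and than in DGY1726 (log2 ratio -1.62 with SE 0.19 and adjusted p = 1.02e-06). CYC1, the main form, had 33.7 and 24.5 CPM in DGY1743, 31.02 and 29.3 in DGY1741, 39.5 and 35.6 in DGY1735 and 39.5 and 41.6 in DGY1726 and did not pass the test among the 4 strains (adjusted p = 0.06). In pairs, CYC1 was lower in DGY1741 than in DGY1726 (log2 ratio -0.43 with SE 0.15 and adjusted p = 0.0253), a call lost without any 1 of the 4 libraries (adjusted p up to 0.138). COX5A, the aerobic form of a complex IV subunit, was higher in DGY1743 than the mean of the 3 other strains (log2 ratio 0.36 with SE 0.10 and adjusted p = 0.0225), whereas COX5B, its hypoxic form, was lower (log2 ratio -0.29 with SE 0.09 and adjusted p = 0.0446). The COX5A ratio was 0.24, adjusted p = 0.192 without DGY1743 replicate 1, and its call was also lost without DGY1741 replicate 1 (adjusted p = 0.0533). The COX5B call was lost without any 1 library other than DGY1735 replicate 1 (adjusted p up to 0.154).

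Of the 3 accessory proteins of complex IV, COX26 had 62.7 and 62.5 CPM in DGY1743, 50.7 and 53.9 in DGY1741, 37.9 and 37.8 in DGY1735 and 34.8 and 40.04 in DGY1726, with the 4 libraries of DGY1743 and DGY1741 above the others, and RCF2 had 63.1 and 43.97 CPM in DGY1743, 41.8 and 49.4 in DGY1741, 81.7 and 73.9 in DGY1735 and 91.2 and 76.7 in DGY1726. RCF2 was lower in DGY1741 than in DGY1726 (log2 ratio -0.88 with SE 0.13 and adjusted p = 2.85e-05), and COX26 was higher (log2 ratio 0.49 with SE 0.14 and adjusted p = 0.00868). This COX26 call was lost without DGY1741 replicate 2 and without DGY1726 replicate 1. COX26 was also higher in DGY1743 than in DGY1735 (log2 ratio 0.72, adjusted p = 0.00921) and than in DGY1726 (log2 ratio 0.74, adjusted p = 0.00177). Against the mean of the other 3 strains it was higher in DGY1743 as well (log2 ratio 0.58, adjusted p = 0.00162). These calls of COX26 in DGY1743 held under every alternative. Of 7 genes of complex II and other dehydrogenases that feed ubiquinone, 3 were lower in DGY1741 than in DGY1735 and none higher, where 18.2% of all tested genes were lower and 20.3% higher. SDH2, the iron-sulfur subunit of complex II, had 78.05 and 52.6 CPM in DGY1743, 38.7 and 42.6 in DGY1741, 85.7 and 97.4 in DGY1735 and 79.4 and 86.9 in DGY1726, and was lower in DGY1741 than in DGY1735 (log2 ratio -1.16 with SE 0.12 and adjusted p = 5.15e-06). GUT2, the glycerol-3-phosphate dehydrogenase of the outer face, had 99.7 and 82.5 CPM in DGY1743, 70.4 and 77.4 in DGY1741, 115 and 141 in DGY1735 and 117 and 154 in DGY1726, and was lower in DGY1741 than in DGY1735 (log2 ratio -0.78 with SE 0.12 and adjusted p = 0.000223).

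Of 11 genes of coenzyme Q synthesis, 5 were lower and 1 higher in DGY1741 than in DGY1735, with a median log2 ratio of -0.28 (18.2% of all tested genes lower and 20.3% higher). In DGY1741 over DGY1726, 2 were lower and 3 higher, with a median log2 ratio of -0.18 (22% of all tested genes lower and 21.2% higher). In DGY1741 over DGY1735 COQ8 was lower (log2 ratio -0.67 with SE 0.13 and adjusted p = 0.000895), and COQ2, which attaches the isoprenoid tail, was higher (log2 ratio 0.40 with SE 0.11 and adjusted p = 0.0123). Without DGY1741 replicate 1 the COQ2 ratio in this pair was 0.34 and the call was lost. COQ2 was also higher in DGY1741 than in DGY1726 (log2 ratio 0.68, adjusted p = 6.95e-05), a call that held under every alternative. Of 32 genes of complex IV biogenesis, 9 (28.1%) were lower in DGY1741 than in DGY1735 and none higher, where 18.2% of all tested genes were lower. In DGY1741 over DGY1726 9 were lower and 2 higher, where 22% of all tested genes were lower. DESeq2 called 6 of the 32 in DGY1741 over DGY1735 and 7 in DGY1741 over DGY1726. Of the 5527 tested genes it called 1950 and 2202 in these pairs. Without a call from edgeR in DGY1743 over DGY1741, 5 of the 32 had an unadjusted p under 0.05, and DESeq2 called none. Of the 5527 tested genes, 1880 had such a p in this pair, and DESeq2 called 1188. SHY1 was lower in DGY1741 than in DGY1726 (log2 ratio -0.70 with SE 0.16 and adjusted p = 0.00125), as was MSS51, a translational activator of COX1 (log2 ratio -0.64 with SE 0.14 and adjusted p = 0.00102). Among the 4 strains, 2 of 10 genes of complex III biogenesis (CBP4 and CBP1) and 3 of 12 of ATP synthase biogenesis (ATP11, ATP23 and ATP10) differed, as did 7 of the 32 of complex IV biogenesis. These shares of 20%, 25% and 21.9% stood below the 47.3% of all tested genes.

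Of the 5 carriers of adenine nucleotides and phosphate, 3 were lower in DGY1741 than in DGY1726 and none higher, where 22% of all tested genes were lower and 21.2% higher. AAC1, a minor ADP/ATP carrier, had 108 and 111 CPM in DGY1743, 86.2 and 85.6 in DGY1741, 152 and 157 in DGY1735 and 126 and 131 in DGY1726, and was lower in DGY1741 than in DGY1735 (log2 ratio -0.84 with SE 0.11 and adjusted p = 4.4e-05). PIC2, a phosphate carrier, had 69.3 and 64.7 CPM in DGY1743, 38.5 and 40.3 in DGY1741, 59.1 and 73.3 in DGY1735 and 67.1 and 76.3 in DGY1726, and was lower in DGY1741 than in DGY1726 (log2 ratio -0.86 with SE 0.13 and adjusted p = 2.78e-05). Of the 5 HAP regulators, HAP1 and HAP3 differed among the 4 strains. HAP1 had 693 and 788 CPM in DGY1743, 1001 and 1014 in DGY1741, 697 and 713 in DGY1735 and 742 and 774 in DGY1726. It was higher in DGY1741 than in DGY1735 (log2 ratio 0.53 with SE 0.13 and adjusted p = 0.00646), a call lost without DGY1741 replicate 1 or replicate 2. HAP1 was also higher in DGY1741 than in DGY1726 (log2 ratio 0.41, adjusted p = 0.00594), a call that held under every alternative. In DGY1743 over DGY1741 it was lower (log2 ratio -0.44, adjusted p = 0.0274), a call lost in 4 of 11 alternatives other than the threshold of 0.01. In the S288C background HAP1 is known to carry a transposon insertion. HAP3, a DNA-binding subunit of the CCAAT activator, had 36.5 and 33.01 CPM in DGY1743, 28.7 and 33.98 in DGY1741, 23.1 and 25.3 in DGY1735 and 24.9 and 26.1 in DGY1726, and was higher in DGY1743 than the mean of the 3 other strains (log2 ratio 0.37 with SE 0.12 and adjusted p = 0.0465). The HAP3 call was lost with DESeq2 (adjusted p = 0.0523), with no filter on low counts (adjusted p = 0.0557) and without any 1 library other than DGY1741 replicate 2 (adjusted p up to 0.215). HAP4, the subunit that activates, did not pass among the strains (adjusted p = 0.22) and had 61.98 and 84.5 CPM in DGY1743, 76.04 and 98.3 in DGY1741, 171 and 65.7 in DGY1735 and 67.6 and 78.2 in DGY1726.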

How the data were processed

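Single-end reads were trimmed by the authors (cutadapt), cleared of structural RNA, aligned (STAR) and counted by strand per annotated feature (bedtools, Ensembl annotation of build R64). The deposited values are raw read counts per gene, with no normalization. How reads with several alignments were treated is not given in the sources used here. The labels describe polyA RNA, and by the methods poly-A selection was left out.

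Testing covered 5527 of 6600 protein-coding genes, those with mean counts of 100 or more. The test was edgeR's quasi-likelihood test (version 4.0.16, R 4.3.3) on TMM-scaled libraries, two-sided, Benjamini-Hochberg adjusted over all tested genes, threshold 0.05. Strains were tested together with all 8 libraries, and in pairs with 4 libraries. Groups and replicate numbers came from sample titles. With 2 cultures per strain, the spread between cultures limits precision more than depth. The p-values set each strain difference against the spread between cultures of the same clone, and variation between clones was not sampled. The scripts were tested on simulated counts. Alternatives were DESeq2 1.42.0, its size factors, no filter, exon rows, mitochondrial genes left out, a replicate block, pairs from 1 fit of all libraries, each library left out and a threshold of 0.01. Values are named for every member, and in most lists of other genes for 2 to 4 with the smallest adjusted p among the strains. The mitochondrially encoded subunits have only a range. For the biogenesis genes of complex III and ATP synthase, only the names of those that differed are given. The members and lists were chosen with earlier results of these data known. Levels per kb used the length of the gene row.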

Additional observations from a re-analysis of the deposited data

How the results depend on the processing

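Of the 54 called ratios of members, none was reversed under any alternative, and 25 stayed past the threshold in every alternative other than the threshold of 0.01, which lost 18. Leaving out DGY1741 replicate 1 lost 19 of 41 ratios, the most of any library. With each library left out in turn, members differing among the 4 strains numbered 9 to 18. Called members then numbered 4 to 11 in DGY1743 over DGY1741, 1 to 3 in DGY1743 over DGY1735, 7 to 12 in DGY1743 over DGY1726, 4 to 11 in DGY1741 over DGY1735, 7 to 14 in DGY1741 over DGY1726, 0 to 1 in DGY1735 over DGY1726 and 5 to 9 in DGY1743 over the mean of the other 3. At a threshold of 0.01 the counts were 10 among the 4 strains, 1 in DGY1743 over DGY1735, 5 in DGY1741 over DGY1735 and 5 in DGY1743 over the mean of the other 3. The stricter threshold can only lower the calls over all tested genes as well. Pairs taken from 1 fit of all 8 libraries gave 5 in DGY1743 over DGY1735 and 1 in DGY1735 over DGY1726. DESeq2 lost 4 calls of members, among them CYT1 in DGY1741 over DGY1735 (adjusted p = 0.0659) and ATP14 in DGY1743 over DGY1726 (adjusted p = 0.0606), and testing with no filter lost 4. The replicate block lost 2, ATP19 in DGY1743 over DGY1741 (adjusted p = 0.0627) and COX9 in DGY1743 over DGY1735 (adjusted p = 0.0514). It gave 1 call in DGY1735 over DGY1726 and 18 among the 4 strains. Same-numbered cultures correlated in their deviations at -0.25 (DGY1743 and DGY1735) to 0.40 (DGY1741 and DGY1726) over the 6 pairs of strains. The main fit did not pair cultures by number, and whether same-numbered cultures belong together was not tested. Over all tested genes, DGY1735 over DGY1726 had 97 calls, 191 with DESeq2, 256 with the block and 17 to 178 with a library left out. In fits with a library left out, the lone library of a strain was taken to vary like the others. Over all tested genes, calls also fell below those of the main fit in at least 1 of these fits for every comparison. The causes were not tested.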

Other observations

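Within DGY1741, DGY1735 and DGY1726 most of the 35 genes were higher in 1 of the cultures. In DGY1741, 27 of the 35 were higher in replicate 2 than in replicate 1 (median log2 difference 0.11, all tested genes -0.00697), in DGY1735 31 of 35 (0.13, all tested genes 0.02) and in DGY1726 30 of 35 (0.10). In DGY1743 14 of 35 were higher in replicate 2 (-0.07). The widest gap of any member within each strain was that of ATP7 in DGY1743, with 87.1 CPM in replicate 1 and 47.9 CPM in replicate 2, of ATP19 in DGY1741 (14.4 and 23.0 CPM), of INH1 in DGY1735 (14.1 and 21.8 CPM) and of ATP18 in DGY1726 (15.9 and 24.5 CPM). HAP4 had 170.6 CPM in DGY1735 replicate 1 and 65.7 CPM in replicate 2, while 31 of the 35 members were lower in replicate 1. These differences between cultures were not tested, since each rests on 2 libraries.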
